A study of Caenorhabditis elegans with 4 samples.

Results

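The genes described here lie on the X chromosome of the nematode Caenorhabditis elegans and have no name beyond that of the stretch of genome sequence that holds them. Such a sequence name joins a clone, a dot and a number (F18E9.7, for example), whereas a gene with a class name carries letters, a hyphen and a number (vit-2, for example). A member had to be read by a probe assigned to a single gene, to have a sequence name as its symbol, and to be placed on X by the reference gene table of assembly WBcel235. In all, 996 genes among the 19513 features of the arrays met this rule, of which 945 are listed as protein-coding, 48 as pseudogenes and 3 as RNA genes. Values on at least 3 arrays, the minimum for the test, were available for 988 members. The genes set beside them are 4852 autosomal genes with a sequence name, 4811 of them tested.

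One side of every array was messenger RNA of adult males of a him-5 mutant strain; loss of him-5 disturbs the segregation of X and so yields many males. It was hybridised on a 2-colour array against messenger RNA of a wild-type mixed reference (labelled mixed-stage on the array of preparation 1), which carries no allele that the labels name. The 4 arrays, with male preparations 1 to 4, form the only group. Sex, genotype and stage cannot be told apart in this design. Nothing in the labels says that the preparations came from separate cultures, so the p-values cover no more than the scatter of these 4 preparations, and part or all of it may be technical. Values are log2 ratios given as males over reference, a direction that is likely from the series title and the order of the channels but is not stated with the values.

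Males of this species have a single X chromosome and hermaphrodites a pair, and a dosage compensation complex lowers transcription from both X chromosomes of hermaphrodites. In the germ line the X chromosome is largely silent during much of development, and genes needed for sperm are scarce on it. The comparison asks how X-linked genes of unnamed function differ in abundance between adult males and a mixed population, and whether they do so as autosomal genes of the same naming kind do.

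Sperm transcripts marked the male side on every array. The median log2 ratio of 30 msp genes, whose major sperm proteins drive the crawling of nematode sperm, lay between 4.01 and 5.08. The oocyte and adult hermaphrodite markers cav-1, cpg-3 and egg-2 stood at -3.08, -2.38 and -2.33, while the yolk protein genes were mixed, with vit-2 lower at -1.33, vit-5 not called at 0.39 and vit-6 higher at 0.91. him-5 itself had a log2 ratio between -3.11 and -1.61. Preparation 2 stood apart from the others in its ribosomal protein genes, whose median was 1.10 there and 0.04 to 0.34 on the others. Of 70 tested sperm genes of the msp, spe, fer, ssp, sss and gsp-3 and gsp-4 classes, 0 lie on X, and 67 of the 70 were higher in males. On X, 6 of the tested genes belong to the nsp classes, whose names stand for nematode-specific peptides. Of those, nspa-9 was higher at 3.22 ± 0.50 (SD, n = 4), and nspc-20, nspc-9 and nspc-13 were lower at -2.98 ± 0.70, -2.87 ± 0.86 and -2.42 ± 0.73 (SD, n = 4 each). The others, nspc-14 and nspg-4, were not called at -0.18 and 0.011.

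Strong male enrichment was rarer among X-linked than among autosomal sequence-named genes, while strong depletion was about as frequent. By the mean of the 4 arrays, 75 of 988 X-linked genes (7.59%) had a log2 ratio of 1 or more, that is at least 2-fold higher in males, against 1093 of 4811 autosomal genes (22.7%). At a log2 ratio of 3 or more, that is at least 8-fold, stood 6 X-linked genes (0.607%) against 232 autosomal genes (4.82%). At -1 or less stood 120 X-linked genes (12.1%) against 576 autosomal genes (11.97%). Over all 19214 features tested, 13.9% had a mean of 1 or more, 2.5% of 3 or more and 12.2% of -1 or less.

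The size of these differences depended on the preparation. At a log2 ratio of 1 or more, the share of X-linked genes was 4.86%, 19.7%, 6.42% and 11.1% on preparations 1 to 4, against 22.4%, 21.7%, 23.7% and 26.0% of autosomal genes. The X-linked share was thus 17.5, 2.07, 17.3 and 15.0 percentage points below the autosomal one, lower on all 4 arrays and closest on preparation 2. At 3 or more, the X-linked shares of 0.709%, 1.13%, 0.510% and 0.710% lay below the autosomal shares of 8.002%, 2.46%, 5.65% and 6.29% on every array. At -1 or less the sign changed between arrays: the X-linked shares were 12.6%, 12.999%, 15.7% and 13.4%, against 8.31%, 17.8%, 12.3% and 15.8% of autosomal genes. Without preparation 2, 5.83% of X-linked genes and 22.96% of autosomal genes had a mean of 1 or more. No test of these shares was made, since genes of a group are not replicates; an exact two-sided sign-flip test over 4 arrays could not go below p = 0.125.

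**Figure D1:**
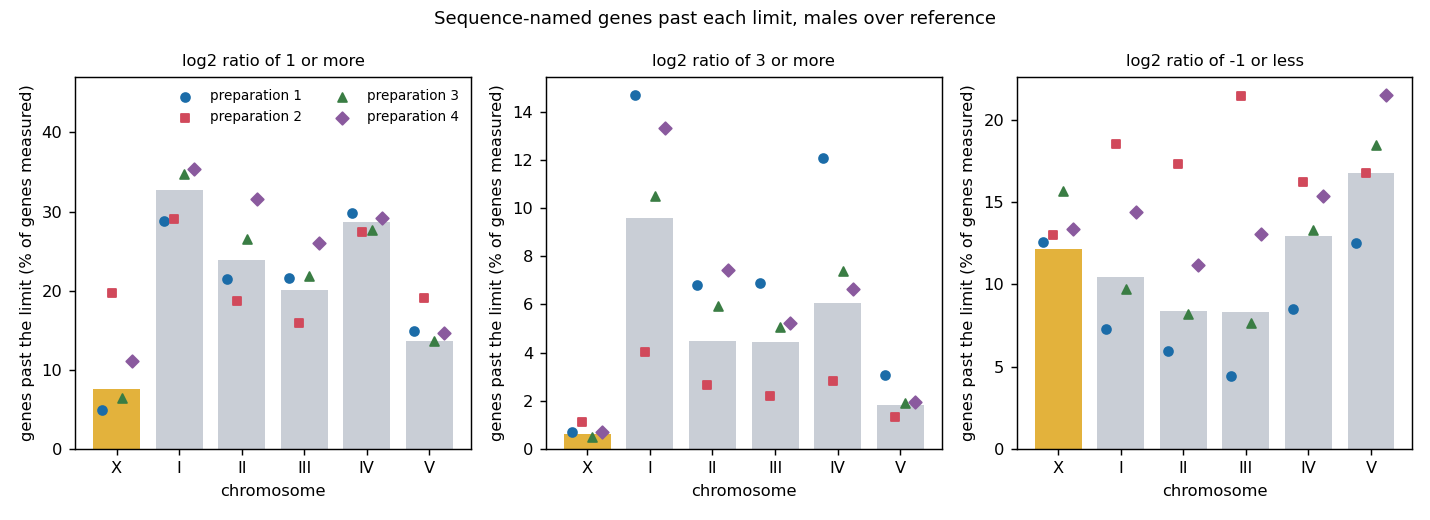
Share of sequence-named genes past each limit, in percent of the genes measured, on X and on chromosomes I to V. Bars give the share by the mean log2 ratio of the 4 arrays and points the share on each preparation. The X bar is lowest for limits of 1 and 3, at 7.59% and 0.607%, while on preparation 2 the X share at 1 or more (19.7%) lies above those of II, III and V.

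Among single chromosomes, X had the smallest share of sequence-named genes at a mean of 1 or more, and V came next with 13.7%. Chromosomes III, II, IV and I had 20.1%, 23.9%, 28.6% and 32.7%. At 3 or more, V again came next to X with 1.82%, and chromosome I had the largest share at 9.57%. This order did not hold on every array, because on preparation 2 the X-linked share at 1 or more (19.7%) lay above those of chromosomes III (15.97%), II (18.7%) and V (19.1%). For depletion X was not at an end of the order: its 12.1% lay between 8.33% on III and 16.8% on V. Genes with class names showed a smaller gap. Of 1270 X-linked genes with a class name, 6.93% had a mean of 1 or more, against 10.7% of 7922 autosomal ones. Their shares at -1 or less were 17.0% on X and 14.9% on the autosomes. By preparation, the class-named X share at 1 or more differed from the autosomal one by -4.72, -1.87, -6.10 and -2.57 points. On preparation 2 that gap was close to the -2.07 points of sequence-named genes. At -1 or less the differences of 8.72, -4.63, 6.45 and -1.51 points had no stable sign.

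The gap lay in the upper tail and hardly in the centre. The median of the mean log2 ratios was 0.040 for X-linked and 0.14 for autosomal sequence-named genes, and the X-linked median was lower by 0.20, 0.22 and 0.13 on preparations 1, 3 and 4 but higher by 0.16 on preparation 2. The 5th percentile was -1.40 on X and -1.48 on the autosomes, and the 25th was -0.54 and -0.52. At the 75th percentile the values were 0.43 and 0.86, and at the 95th they were 1.16 and 2.95. Of the tested X-linked genes, 519 lay within 0.5 of 0.

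**Figure D2:**
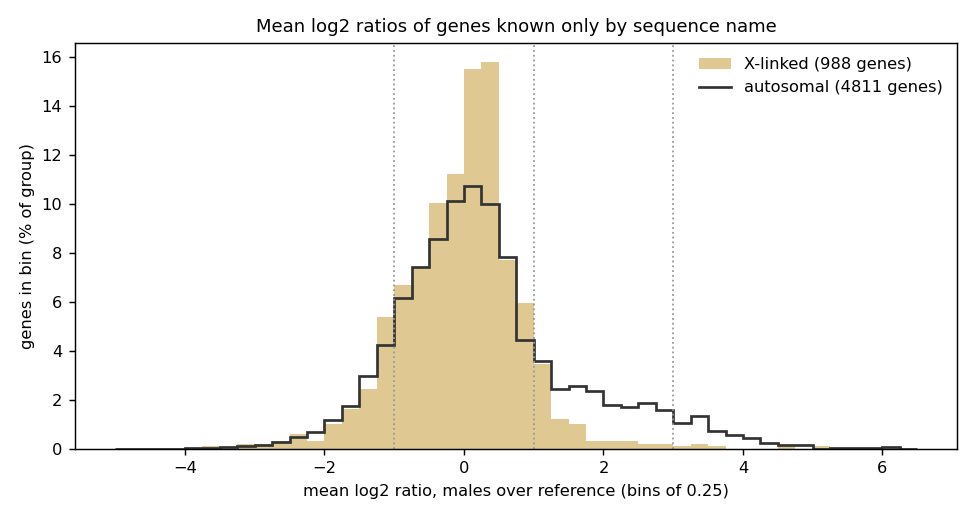
Mean log2 ratio, males over reference, in bins of 0.25, in percent of 988 X-linked (filled) and 4811 autosomal (line) sequence-named genes, with dotted lines at the limits of -1, 1 and 3. The groups lie close together below 0, the X-linked fill is higher between 0 and 0.5, and beyond 1.25 the autosomal line lies above the X-linked fill in most bins.

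By the test on each gene, a gene was called at an adjusted p under 0.05. Of the 988 X-linked genes, 165 were called higher in males (16.7%) and 243 lower (24.6%), against 1489 (30.9%) and 1099 (22.8%) of the autosomal genes. The background over all features tested was 22.1% called higher and 23.6% called lower, so that the share of X-linked genes called higher lay below the background and the share called lower near it. Of the calls on X-linked sequence-named genes, 40.4% were higher, against 57.5% of those on autosomal sequence-named genes. For sequence-named genes of single autosomes this share ran from 42.8% on V to 67.03% on I. Among genes with class names it was 25.04% on X and 40.04% on the autosomes. The share was lower on X for both kinds of name, but a value near 40.4% was not particular to X. When each array was centred on its ribosomal protein genes instead, which shifted the median of all features by -0.40, 31 X-linked genes were called higher and 253 lower, so that 10.9% of the calls were higher. The share called over all features is not given for that centring, so these counts show nothing particular to X. Under that centring 3.44% of X-linked genes had a mean of 1 or more, against 17.5% of autosomal genes. At 3 or more the shares were 0.304% and 2.89%, and at -1 or less 23.4% and 22.2%. Most called changes were small: 94 of the 165 higher genes and 123 of the 243 lower genes had a mean within 1 of 0. All measured arrays lay above 0 for 164 of the 165 higher genes and below 0 for 235 of the 243 lower genes. The 580 genes that were not called had means between -0.91 and 1.83.

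F18E9.7, a protein-coding gene, had the largest ratio of any member. Its log2 ratio was 5.93, 4.43, 5.39 and 4.58 on preparations 1 to 4, far above 0 on every array, which gives a mean of 5.08 ± 0.70 (SD, n = 4), 33.9-fold higher in males (adjusted p = 3.4e-05). F09E10.1 followed with 4.47, 5.52, 4.78 and 3.90, a mean of 4.67 ± 0.68 (SD, n = 4) and 25.4-fold higher (adjusted p = 3.69e-05). Preparation 2 was the lowest array for F18E9.7 and the highest for F09E10.1. Their neighbours on X did not share the change: beside F18E9.7 stood nlp-7, a neuropeptide-like gene, at -1.30 and F18E9.1 at 0.032, and beside F09E10.1 stood F09E10.7 at 0.32 and toca-1 at -0.15.

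F19H6.5 and F19H6.6 are next to each other among the measured genes of X, and both were higher in males. F19H6.5 had log2 ratios of 4.13, 3.40, 2.97 and 3.88 (mean 3.60 ± 0.51, SD, n = 4), 12.1-fold higher (adjusted p = 5.03e-05). F19H6.6 had 3.60, 2.00, 2.98 and 3.67 (mean 3.06 ± 0.77, SD, n = 4), 8.35-fold higher (adjusted p = 0.000255). Both were well above 0 on all 4 arrays. In the reference table F19H6.6 overlaps nspc-15, and nothing in the files shows whether its probe could read that gene too. The measured gene before the pair, nspc-14, stood at -0.18 ± 0.14 (SD, n = 4), and the one after it, srdf-2.1, at -0.41 ± 0.48 (SD, n = 4).

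The other members at 3 or more were C11E4.7 and K09C8.2. C11E4.7 had 4.19, 2.74, 3.97 and 2.64 (mean 3.39 ± 0.81, SD, n = 4), 10.5-fold higher with an adjusted p = 0.000192. K09C8.2 had 3.62, 3.42, 3.10 and 2.94 (mean 3.27 ± 0.31, SD, n = 4), 9.64-fold higher with an adjusted p = 3.6e-05. K09C8.2 overlaps nas-10, a gene of the astacin metalloprotease family, which was itself lower in males at -0.86 ± 0.27 (SD, n = 4, adjusted p = 0.0072). The arrays of C11E4.7 split into a higher pair, preparations 1 and 3, and a lower pair, and those of K09C8.2 lay close together.

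Below the limit of 3, F56C3.8 came first, at 1.98, 4.36, 2.17 and 2.96 (mean 2.87 ± 1.08, SD, n = 4, adjusted p = 0.00102). Its highest array was preparation 2. F07G6.8 varied least among the 12 highest members, with 2.58, 2.77, 2.68 and 2.87 (mean 2.73 ± 0.13, SD, n = 4, adjusted p = 3.98e-05). C33G3.5 stood at 2.65 ± 0.45, R193.2 at 2.28 ± 0.64 and C14F11.4 at 2.23 ± 0.82 (SD, n = 4 each), with adjusted p from 0.000126 to 0.00116. C33G3.5 overlaps another sequence-named gene, C33G3.4. R01E6.5 stood at 2.48 ± 1.51 (SD, n = 4, adjusted p = 0.00655), standing at 4.62 on preparation 4 and at 1.16 to 2.37 elsewhere. The gene next to R01E6.5, the carbonic anhydrase gene cah-4, was higher too, at 1.76 ± 0.22 (SD, n = 4, adjusted p = 0.000278).

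**Figure D3:**
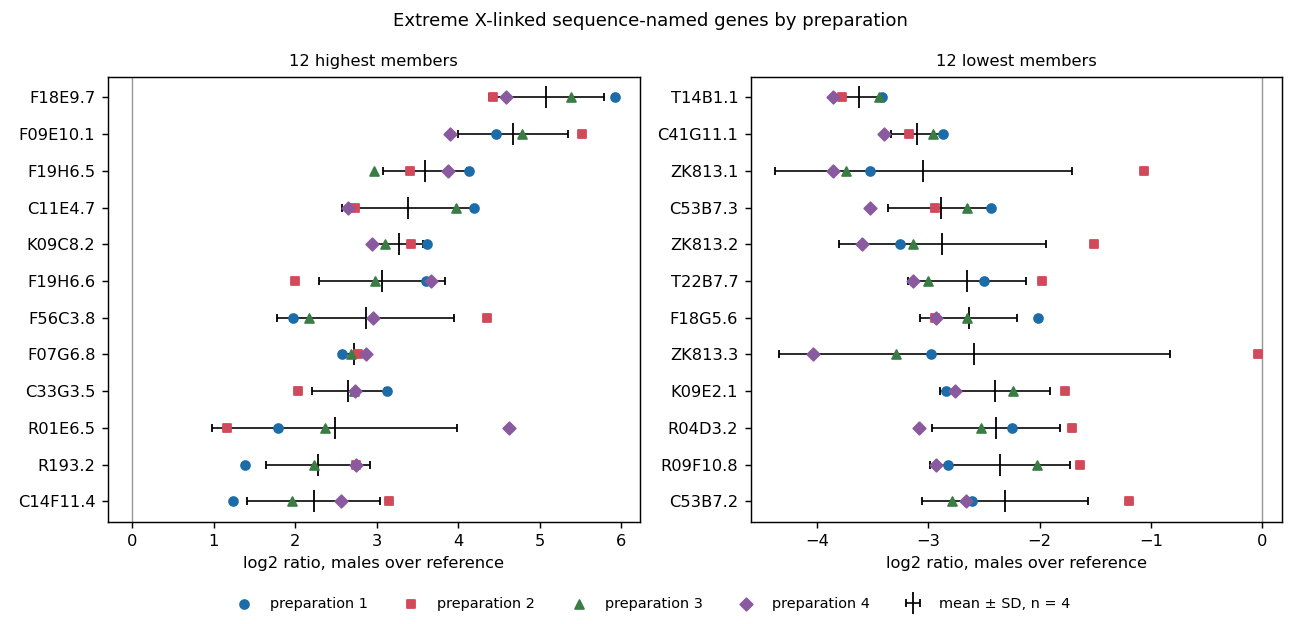
Log2 ratio, males over reference, of the 12 members with the highest and the 12 with the lowest mean among those called with the same sign on 4 arrays; symbols give the preparations and bars the mean ± SD (n = 4). The 12 highest run from 2.23 to 5.08 and the 12 lowest from -3.62 to -2.31. Preparation 2 is nearest to 0 for ZK813.1, ZK813.2, ZK813.3, C53B7.2, T22B7.7, K09E2.1, R04D3.2 and R09F10.8.

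At the other end, T14B1.1 and C41G11.1 were the most depleted in males and varied little. T14B1.1 had -3.41, -3.78, -3.44 and -3.86 (mean -3.62 ± 0.23, SD, n = 4), 12.3-fold lower in males (adjusted p = 2.61e-05). C41G11.1 had -2.87, -3.17, -2.95 and -3.40 (mean -3.10 ± 0.24, SD, n = 4), 8.56-fold lower (adjusted p = 3.59e-05). Every array placed both genes well below 0. C41G11.1 overlaps the cytochrome P450 gene cyp-43A1, which was not called at -0.23 ± 0.21 (SD, n = 4).

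ZK813.1, ZK813.2 and ZK813.3 are consecutive among the measured genes and were lower in males together. ZK813.1 had -3.52, -1.06, -3.74 and -3.86 (mean -3.04 ± 1.33, SD, n = 4, adjusted p = 0.00169), and ZK813.2 had -3.25, -1.51, -3.13 and -3.59 (mean -2.87 ± 0.93, SD, n = 4, adjusted p = 0.00059). ZK813.3 had -2.98, -0.037, -3.29 and -4.04 (mean -2.59 ± 1.76, SD, n = 4, adjusted p = 0.00981). In all 3 genes preparation 2 was the array nearest to 0. The next measured gene, sax-3, which encodes a Roundabout-type receptor of axon guidance, was lower at -1.26 ± 0.63 (SD, n = 4, adjusted p = 0.00631), with preparation 2 as its lowest array at -1.80.

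C53B7.3 and C53B7.2 form another pair of adjacent genes that were lower in males. C53B7.3 had -2.43, -2.94, -2.65 and -3.52 (mean -2.89 ± 0.47, SD, n = 4, adjusted p = 1e-04). C53B7.2 had -2.61, -1.20, -2.79 and -2.66 (mean -2.31 ± 0.75, SD, n = 4, adjusted p = 0.000749). Preparation 2 was nearest to 0 in C53B7.2 and not in C53B7.3. The 5 remaining genes among the lowest 12 were T22B7.7 at -2.65 ± 0.53, F18G5.6 at -2.64 ± 0.43, K09E2.1 at -2.40 ± 0.49, R04D3.2 at -2.39 ± 0.57 and R09F10.8 at -2.35 ± 0.63 (SD, n = 4 each). Their adjusted p lay between 0.000123 and 0.000434, and each was below -1.6 on every array. Preparation 2 was nearest to 0 in all of them but F18G5.6, which was nearest on preparation 1 at -2.02. R09F10.8 overlaps another sequence-named gene, R09F10.1.

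Members with strong changes were mostly not side by side on X. Of the 12 highest, 4 had a measured neighbour called higher with a mean of 1 or more: F19H6.5 and F19H6.6 (each other), R01E6.5 (cah-4) and F56C3.8 (fbxa-190, an F-box gene, at 1.38 ± 1.12, SD, n = 4). The value of fbxa-190 was 0.88 without preparation 2, and its call was lost without preparation 4 (1.32, adjusted p = 0.0546). Of the 12 lowest, 6 had a neighbour called lower with a mean of -1 or less, namely the 3 ZK813 genes, C53B7.2, C53B7.3 and T14B1.1. The neighbour of T14B1.1 is ifp-1, an intermediate filament gene, at -1.16 ± 0.94 (SD, n = 4), which lost its call without preparation 1, 2 or 3 (adjusted p = 0.0818, 0.0989 and 0.0907).

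Over all members, 11 of the 71 called higher with a mean of 1 or more (15.5%) had such a neighbour, against 132 of all 988 tested members (13.4%). Over all features tested, 13.2% were called higher with a mean of 1 or more and 12.1% lower with a mean of -1 or less. Of the 120 called lower with a mean of -1 or less, 29 (24.2%) had a neighbour of that kind, against 260 of all 988 (26.3%). The same limits were used for autosomal sequence-named genes and their neighbours. There, 513 of 1067 called higher with a mean of 1 or more (48.1%) had such a neighbour, against 29.97% of all of them. Of 570 called lower with a mean of -1 or less, 234 (41.1%) had a neighbour of that kind, against 24.7%. These shares are descriptions, since neighbours can overlap or share sequence. The 2258 tested genes of X, named or not, included 336 called lower with a mean of -1 or less (14.9%). Those called higher with a mean of 1 or more were fewer, at 150 (6.64%). These 2258 genes held 10 runs of at least 3 neighbours called the same way with means beyond 1 or -1. Of the runs, 7 were lower in males, the direction that also had more genes past its limit. The longest were of 4 genes. One was made up of the ZK813 genes and sax-3, and of the first 4 by length and order only 1 other held a member: T02C5.1 at -1.04 ± 0.56 (SD, n = 4) overlaps igcm-3, an immunoglobulin-like adhesion gene, at -1.18, which is followed by the calcium channel gene unc-2 at -1.03.

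**Figure D4:**
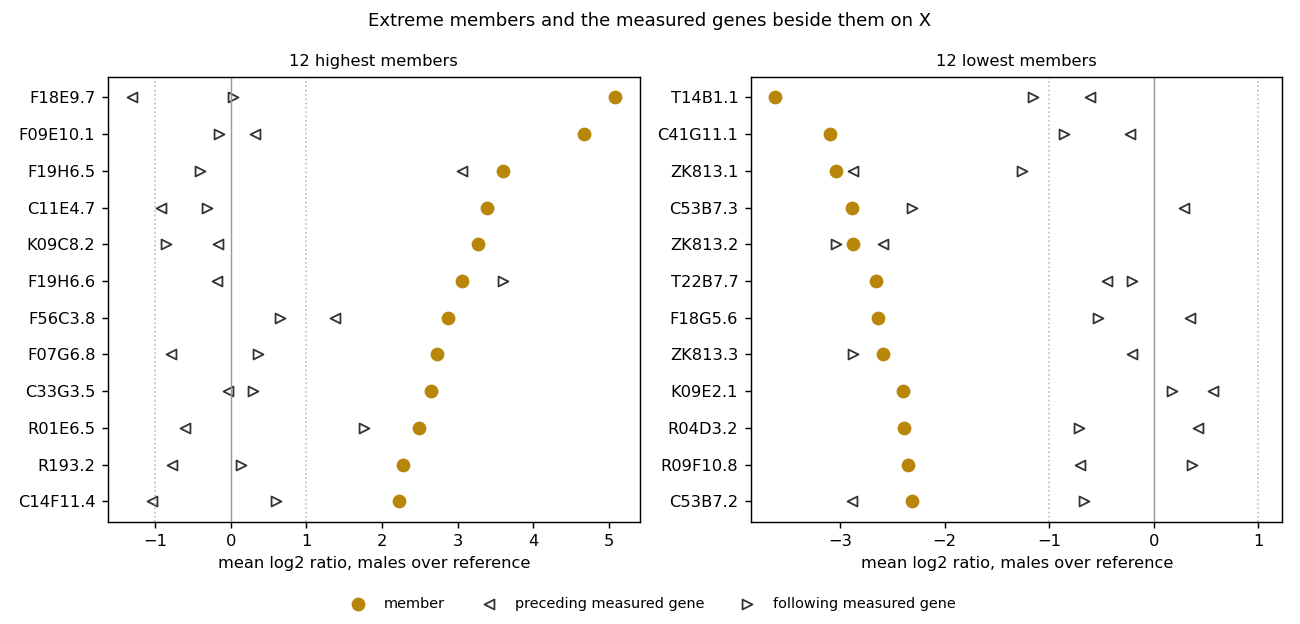
Mean log2 ratio, males over reference, of the 12 highest and 12 lowest members (filled points) and of the measured genes before and after each on X (open triangles). Most neighbours lie between the dotted lines at -1 and 1, and those of F19H6.5, F19H6.6, the 3 ZK813 genes, C53B7.2 and C53B7.3 include one close to the member itself.

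More X-linked genes had their highest value on preparation 2 than on any other. Of 988 members, 557 had their highest value on preparation 2, against 123, 74 and 233 on preparations 1, 3 and 4. This count was made for the members only, so it does not show whether other genes differed. On preparation 2, 145 of 967 members with 4 values (15.0%) stood at 1 or more although the mean of their other arrays was under 1, against 249 of 4649 autosomal genes (5.36%). The corresponding X-linked shares were 0.931%, 1.55% and 6.41% on preparations 1, 3 and 4. The median difference of preparation 2 from the mean of the other arrays was 0.36 on X and -0.20 on the pooled autosomes. Single autosomes differed in direction. On V the median log2 ratio of sequence-named genes was 0.23 on preparation 2, against -0.054, -0.12 and -0.16 on preparations 1, 3 and 4. The median of IV was also highest on preparation 2, while those of I, II and III were lowest there. A rise on preparation 2 was thus not confined to X. Across the 967 genes, the correlation between preparations was 0.69 to 0.76 for the 3 pairs with preparation 2 and 0.80 to 0.89 for the others. Over 4649 autosomal genes it was likewise lower with preparation 2, at 0.78 to 0.84 against 0.86 to 0.93. These are descriptions only, since the arrays share a platform and may share their reference RNA. Ribosomal protein genes were also higher on preparation 2, as given above, and the part of that array's offset in these shares was not tested.

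**Figure D5:**
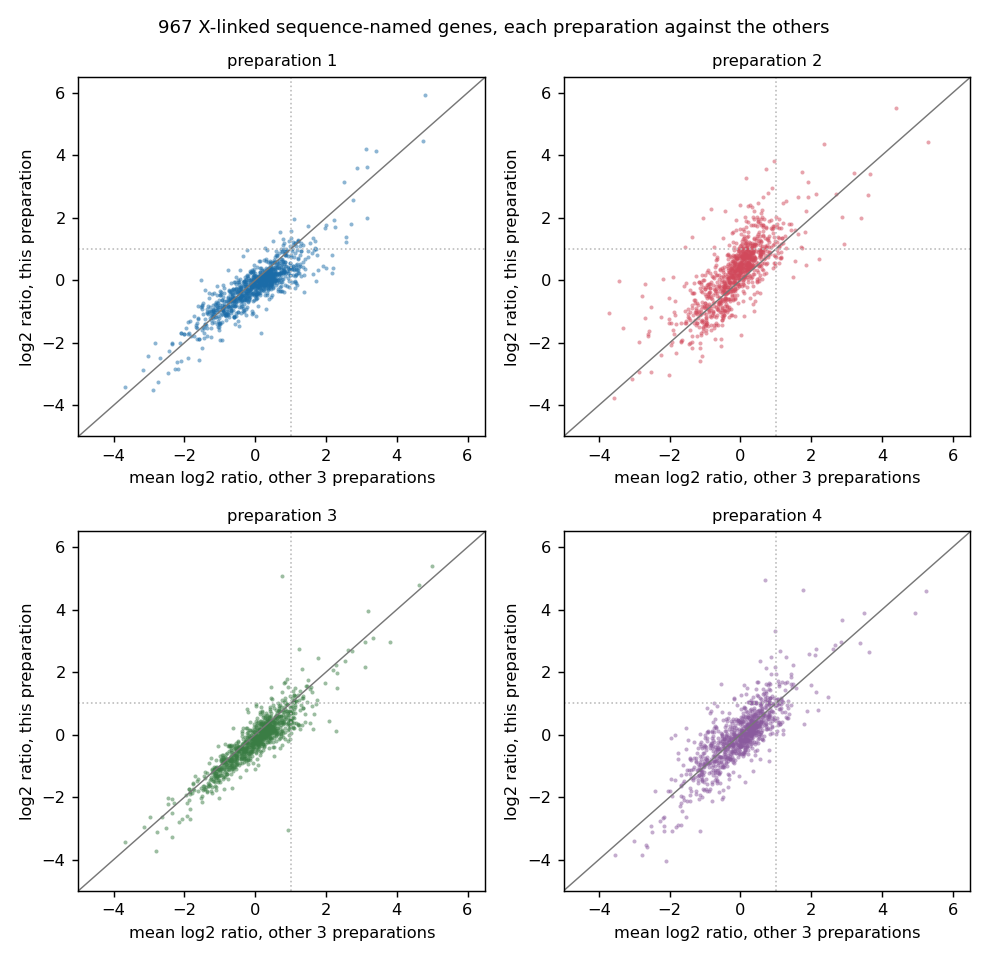
Log2 ratio of 967 X-linked genes with 4 values on each preparation (vertical axis) against the mean of the other 3 preparations (horizontal axis), with a line of equality and dotted lines at 1. On preparation 2 most points lie above the line, with 145 genes at 1 or more there and under 1 in the mean of the others.

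Members higher in males were shorter than the rest, a feature that the choice of members did not use and that autosomal genes showed too. The median length from start to end in the reference table was 1688 bp for the 75 members at 1 or more, 2520.5 bp for the 120 at -1 or less and 2259 bp for the 793 in between. The autosomal medians were 1584, 1852.5 and 1902 bp. X-linked genes were longer than autosomal ones, with medians of 2227.5 and 1812 bp. By length class, the X-linked share at 1 or more was 10.5% against 26.4% of autosomal genes under 1000 bp, and 9.39% against 27.0% from 1000 to under 2000 bp. From 2000 to under 4000 bp it was 6.01% against 20.9%, and 5.45% against 10.8% at 4000 bp or more. At -1 or less, the shares under 1000 bp were 8.95% on X and 9.08% on the autosomes. The X-linked share was lower from 1000 to under 2000 bp (10.6% against 13.2%). It was higher from 2000 to under 4000 bp (14.4% against 12.7%) and at 4000 bp or more (13.2% against 11.7%).

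The pseudogenes among the members had few lower calls. Of 46 tested, 12 were called higher and 2 lower, with a median log2 ratio of 0.35, where the background over all features was 22.1% called higher and 23.6% lower. There were 153 higher and 241 lower among 939 protein-coding members, with a median of 0.022. The autosomal pseudogenes had the same median of 0.35, with 121 of 316 called higher and 31 lower. T08D2.2 was among the 3 pseudogene members at 1 or more, with 0.73, 1.41, 1.40 and 1.68 on preparations 1 to 4 (mean 1.30 ± 0.40, SD, n = 4, adjusted p = 0.00204). The 3 RNA genes, F31A9.2, C05A9.3 and W05H9.3, were not called at 0.29, 0.078 and -0.14.

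Of the largest spreads, those of C49F5.5 and R02E12.5 came with 1 array well above the others. F09F9.3 instead had arrays on both sides of 0. F09F9.3 had 0.77, 2.29, -3.05 and -0.25 on preparations 1 to 4 and was not called at -0.057 ± 2.25 (SD, n = 4, adjusted p = 0.954). It overlaps another sequence-named gene, F09F9.5. C49F5.5 reached 4.93 on preparation 4, its other arrays lying at 0.12 to 1.56. R02E12.5 reached 5.06 on preparation 3, its other arrays lying at 0.69 to 0.80. Neither was called, with adjusted p = 0.083 and 0.0677, and their means were 1.75 and 1.83. Without preparation 4 the mean of C49F5.5 was 0.69, and without preparation 3 it was 2.29 and called (adjusted p = 0.0409). Without preparation 3 the mean of R02E12.5 was 0.75 and called (adjusted p = 0.0478). In all, 4 of the 75 members at 1 or more and 0 of the 120 at -1 or less were not called. The median SD over arrays was 0.36 for X-linked and 0.42 for autosomal sequence-named genes.

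Counts past a limit rest on a continuum of values. F20B6.1, a pseudogene, lay just inside 1 at 1.01 and ZK662.2 just outside at 0.999, while F19H6.6 at 3.06 and F56C3.8 at 2.87 lay on either side of 3. K10B3.5 at -1.002 and F35A5.8 at -0.994 lay on either side of -1. Centring each array on its ribosomal protein genes ended the call of F20B6.1 (0.61, adjusted p = 0.162). For the 9 members with 2 probes the probes can be compared directly: F46H5.2 was read at -1.20 and -1.59 and T20F7.5 at 0.72 and 0.75. Among the others, C08A9.3, C10E2.5, C11H1.5 and K09C4.7 had probe means on opposite sides of 0, from -0.55 to 0.36.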

How the data were processed

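Log2 ratios of 4 two-colour arrays were used as deposited; not given in the sources used here is how the authors scaled the arrays or read the spots. Array medians lay between -0.0087 and 0.068. Base 2 was taken from the values, and spot intensities were not used here. Symbols came from the platform annotation through gene identifiers (15569 probes), accessions (7) or as given (79). Probes of a gene were averaged per array. A mean against 0 was fitted with limma 3.58.1 (lmFit, eBayes; R 4.3.3) to the 19214 features with values on at least 3 arrays, with two-sided p-values adjusted by Benjamini and Hochberg's method across that whole set. The test leaves out the reference's own spread, and a dye bias of single genes would remain, as no dye swap is recorded. The fit was also run on data simulated under its own variance model, which cannot show whether that model holds for these arrays. Shares were computed in Python 3.11.15 over tested genes. Neighbours are the nearest tested genes in the table's order on WBcel235, which served only for names, lengths and order. Named members are the 12 highest and 12 lowest called with 1 sign on 4 arrays, the 4 with the largest SD, those nearest each limit and those in the 4 longest runs; others were chosen after their values were seen. The members and lists were chosen with earlier results of these data known. Alternatives were other scalings, limits on missing values, probes kept apart, platform symbols, robust or weighted fits, a stricter threshold, the period in the sample titles as a covariate, and leaving out each preparation.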

Additional observations from a re-analysis of the deposited data

Results flagged for a closer look

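Among 36 sets of 4 values, 4 had an array far from the others by Dixon's criterion, which chance alone meets in about 1 of 20 sets. That rate is no yardstick here, since 32 of the sets are genes chosen by their own values, R02E12.5 for its large SD. The difference between the X-linked and the autosomal share of sequence-named genes at a log2 ratio of 1 or more was -2.07 percentage points on preparation 2, against -17.5 to -15.0 on the others. Preparation 2 also lay apart for C53B7.2 at -1.20 and for ZK813.1 at -1.06, with their other arrays at -2.79 to -2.61 and -3.86 to -3.52. R02E12.5 lay apart on preparation 3 at 5.06. The ribosomal protein median of preparation 2 was 1.10, and its part in these values was not tested.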

How the results depend on the processing

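The X-linked share of sequence-named genes at a log2 ratio of 1 or more differed from the autosomal share by -15.1 percentage points, or by -17.1 to -12.6 with a preparation left out. At 3 or more the difference was -4.21 points, -5.63 to -3.52 with a preparation left out and -2.59 under ribosomal protein centring, and that of the medians was -0.096, or -0.17 to -0.047. At -1 or less the difference of 0.17 points had no stable sign, at -1.15 to 1.72 with a preparation left out (-1.15 without preparation 1 and -0.82 without preparation 3). The scalings, limits on missing values and naming settings that were run kept the signs of all 4 differences. Calls moved more. Members called higher numbered 165, but 31 with arrays centred on ribosomal protein genes, 72 at an adjusted p under 0.01 and 105 to 138 with a preparation left out, the fewest without preparation 3. Members called lower numbered 243, but 368 with array weights, 135 at the stricter threshold and 145 to 254 with a preparation left out, again fewest without preparation 3. The cause was not tested, beyond the smaller number of arrays. Of 28 called members named by rule, 27 kept call and direction under the scalings, fits and left-out preparations that were run. At the stricter threshold T02C5.1 lost its call as well (adjusted p = 0.0104). Of the 4 not called, R02E12.5 was called higher with array weights (3.78), with the period as a covariate and without preparation 3 (0.75). C49F5.5 was called without preparation 3 (2.29), and ZK662.2 with quantile normalization (0.95), with the period as a covariate and without preparation 1 (1.29) or 3 (1.22). F09F9.3, not called, changed sign with quantile normalization (0.11), without preparation 3 (0.94) and without preparation 4 (0.0064), ran from -0.84 to 0.94 with a preparation left out, and was called lower with array weights (-1.93, adjusted p = 0.0283). Counting only protein-coding genes, or placing genes by platform symbol, was added after the data were seen and kept the signs too. No paired analysis was possible because the arrays form a single group. The number of arrays limits precision.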

Other observations

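Further runs of neighbouring X-linked genes held members. C18A11.3 and C18A11.4 were higher in males at 1.23 ± 0.54 and 1.12 ± 0.58 (SD, n = 4 each), on either side of dim-1, a gene of muscle attachment, at 1.76 ± 0.59 (SD, n = 4). C39D10.7 was lower at -1.84 ± 0.50 (SD, n = 4) beside zig-4 and zig-3, which encode secreted immunoglobulin-domain proteins, at -1.35 and -2.87. C01C10.2 was lower at -1.58 ± 0.46 (SD, n = 4) beside acl-12 and the transcription factor gene sox-2, at -1.02 and -1.85. F08B12.4 at -1.12 ± 0.20 (SD, n = 4) lay between the potassium channel gene slo-2 at -1.54 and the kinase gene pek-1 at -1.81.

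Among members with 3 values, T24D8.6 stood at 2.73, 3.58 and 1.95 on preparations 1, 2 and 4 (mean 2.76 ± 0.82, SD, n = 3), and F31B9.7 at 1.63, 2.73 and 2.47 on preparations 1, 2 and 3 (mean 2.28 ± 0.58, SD, n = 3). Of the 8 members with values on fewer than 3 arrays, K06G5.3 and F53H4.3 had 2.38 and 2.16 on preparation 2 and 0.47 and 0.75 on preparation 1, and T07F12.1 had no value.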
